A study of Mus musculus with 6 samples.

Results

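Slc7a8 and 9 other genes for amino acid carriers of the plasma membrane were examined in endothelial cells of mouse spleen, in libraries lacking Stab1 and in wild-type libraries. The members were taken by name, and 10 of the 23337 genes in the deposited table matched. They are Slc7a8, Slc7a7, Slc7a5, Slc7a6 and Slc7a11 (light chains), Slc3a2 (their heavy chain), Slc7a1 and Slc7a2 (carriers of cationic amino acids), and Slc38a2 and Slc1a5 (sodium-coupled carriers). The set was chosen by the measured difference of Slc7a8, whose RPKM in knockout stood far above wild type, so Slc7a8 is described with no test of its own, and the other 9 were added as carriers of the same kind. Stab1 encodes the scavenger receptor stabilin-1 (Clever-1), found on sinusoidal endothelium, and the study's title names its role in the contact of lymphocytes with spleen vessels as the question. There were 3 Stab1-/- samples (called KO 2, KO 3 and KO 4 after their columns) and 3 wild-type samples (WT 1, WT 3 and WT 4). All 6 were labelled C57BL/6 spleen blood endothelial cells and were sorted as CD31+ CD45- cells after collagenase digestion. The labels give no other allele or treatment, and no age, sex or design of the deletion. Nothing there ties a library to a separate animal, and the spread behind the p-values may be technical.

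Amino acids cross the plasma membrane through families of carriers that differ in substrate, ion coupling and direction. Light chains of the SLC7 family carry out the exchange of one amino acid for another, but reach the cell surface only when linked by a disulfide bond to the heavy chain SLC3A2 (CD98hc), which also binds integrins. Sodium-coupled carriers such as SLC38A2 and SLC1A5 bring in small neutral amino acids and glutamine, which the exchangers can then trade for large neutral amino acids, and endothelium draws arginine for nitric oxide synthesis through cationic carriers.

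Levels are in RPKM (reads scaled to gene length and library size), which allows genes of different length to be compared. Depth recovered from these values was 38895145 to 49361411 reads in knockout and 38454336 to 48107031 in wild type. Stab1 was at 2.32, 2.62 and 2.49 RPKM in libraries KO 2, KO 3 and KO 4, and at 21.6, 43.6 and 31.4 in WT 1, WT 3 and WT 4, so the libraries match their labels. Of 10 endothelial markers 10 were high enough to test and 0 passed in limma (1 at an unadjusted p under 0.05), where Pecam1 (CD31) stood at 344 ± 15.3 RPKM in knockout and 294 ± 28.5 in wild type (SD, n = 3 each). Ptprc (CD45) did not exceed 0.110 RPKM in any library. Markers of other cells were detected as well. Summed levels of 8 megakaryocyte and platelet markers were 54.3 to 71.8 RPKM in knockout and 85.0 to 239 in wild type, those of 9 reticular and fibroblast markers 68.7 to 102 and 108 to 286, and those of 8 erythroid markers 12.7 to 56.2 and 26.2 to 91.9, and no marker of these lists was at 0 in every library. Pf4 (platelets), Cxcl13 (reticular cells) and Rgs5 (pericytes) fell in knockout, with log2 fold changes of -1.62, -1.91 and -1.34 (adjusted p = 0.0160, 0.00159 and 0.0194 in limma). Pf4 did not pass when KO 3 was left out (0.0772) or the filter was dropped (0.109), nor Rgs5 without WT 4 (0.0553), KO 2 (0.0814) or KO 3 (0.0922) or that filter (0.103). Without its called gene, a check added after the values were seen, each list's sums overlapped: 35.9 to 52.7 RPKM in knockout and 48.7 to 150 in wild type for the other 7 platelet markers, and 54.1 to 83.4 and 40.7 to 210.0 for the other 8 reticular markers. The other 7 platelet markers nevertheless all had log2 fold changes below 0, between -0.96 and -0.45. Of the other reticular markers, 7 were tested and lay between -0.55 and 0.37, with 3 above 0. The other 5 pericyte markers had log2 fold changes between -0.18 and 0.18. All 4 erythroid markers that were tested had log2 fold changes below 0 (median -0.81), and 0 passed in limma. The part of these cells in the carrier results was not tested. Summed levels of pericyte markers (293 to 386 RPKM in knockout, 269 to 518 in wild type), mesothelial markers (1.91 to 5.36 and 1.06 to 12.6), B cell markers (1.09 to 1.80 and 1.10 to 1.34) and T cell markers (6.65 to 7.96 and 6.49 to 7.84) overlapped. In bulk samples, fewer cells of a type and less RNA per cell cannot be told apart.

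In the fit across genes, the 11035 genes that reached 1 RPKM in 3 or more libraries were tested with limma on log2(RPKM + 0.5), and 1.94% of them passed an adjusted p of 0.05 (0.671% higher in knockout, 1.27% lower). Of the 10 carrier genes 8 were high enough to test. Of these, 3 were past the threshold and higher in knockout, namely Slc7a8, whose place there the choice of genes fixed, Slc7a7 and Slc3a2, and 0 were lower. The authors' deposited table called the same 3 and no other carrier, against 1.57% of its 13742 genes in either direction and 0.444% as higher. Those 3 were also the tested carrier genes whose groups did not overlap, against 20.3% of all genes tested (10.7% higher in knockout, 9.57% lower). At an unadjusted p under 0.05 were 15.7% of all genes tested, and 54.3% had a log2 fold change above 0. The median log2 fold change (knockout minus wild type) was 0.03 over the 8 carrier genes, Slc7a8 among them, and 0.03 over all genes tested. Without Slc7a8 it was -0.01 over 7 carrier genes, of which 2 passed and 3 had a log2 fold change above 0. Besides Slc7a8, the calls were the light chain Slc7a7 and the heavy chain Slc3a2, and the cationic and sodium-coupled carriers held 0. The calls of Slc7a7 and Slc3a2 were lost in 8 and 5 of 17 alternative fits.

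**Figure D1:**
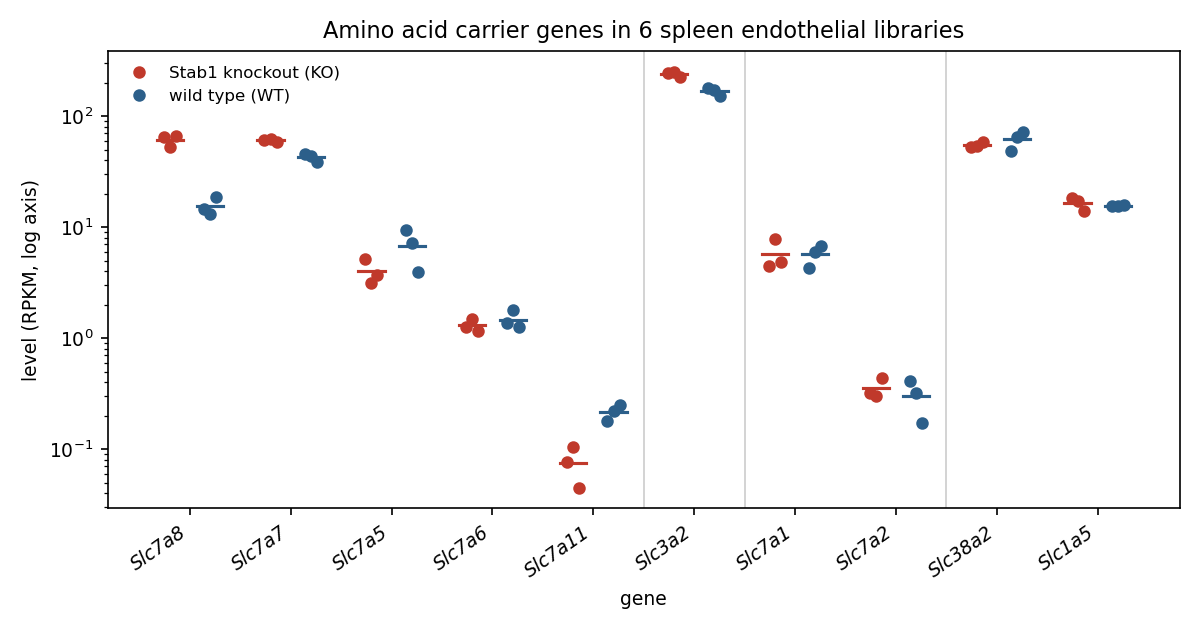
Level of each carrier gene (RPKM, log axis) in the 3 knockout (red, left) and 3 wild-type (blue, right) libraries; points are libraries, short lines group means, and grey lines separate light chains, heavy chain, cationic and sodium-coupled carriers. Slc7a8, Slc7a7 and Slc3a2 sit higher in all 3 knockout libraries than in any wild-type one, and Slc7a11 lower, at a far lower level.

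Slc7a8 encodes LAT2, a sodium-independent exchanger of neutral amino acids, small and large, that also carries thyroid hormones. It was at 64.8, 53.3 and 66.8 RPKM in libraries KO 2, KO 3 and KO 4, against 14.7, 13.1 and 18.6 in WT 1, WT 3 and WT 4. Every knockout library was above every wild-type library, and the lowest knockout value was well clear of the highest wild-type one. The group means were 61.6 ± 7.27 in knockout and 15.5 ± 2.82 in wild type (SD, n = 3 each), a ratio of 3.99, and the log2 fold change was 1.97 ± 0.15 (SE). These values rested on 10935 to 13001 reads in knockout and 2465 to 3426 in wild type, so counting error was small beside the spread between libraries. Among all genes tested, the mean level stood at percentile 85.5 in knockout and 56.6 in wild type. Over 17 alternative fits, the log2 fold change lay between 1.79 and 2.10. In the authors' deposited table it was 2.004. The gene lies on chromosome 14 at 54722215 to 54781886 (GRCm38, RefSeq annotation, gene ID 50934), and no other RefSeq gene overlaps it.

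The sequence around the start of Slc7a8 is shown because the gene's difference set the choice of genes, and for comparison with Slc7a7, Slc3a2 and Slc7a11 further on. RefSeq windows (GRCm38.p6) run from 250 bases before to 50 bases after an annotated start, and 7 of the 10 carrier genes had one. Each was searched on both strands for TGATGNAA (the core of the C/EBP-ATF response element, which ATF4 binds in amino acid shortage), TGACNNNGC (the antioxidant response element core), TATAAA (the TATA box), CACGTG (the E-box), GGGCGG (the GC box) and CCGGAAG (an ETS site), and matches are in capitals. The Slc7a8 window, at chr14:54781837-54782136 on the minus strand, held 1 GC box and no match to the other 5 motifs. In the first window of all 27025 genes that have one, 35.9% held the GC box, 4.06% the C/EBP-ATF core, 12.5% the antioxidant core, 14.2% the TATA box, 7.24% the E-box and 9.12% the ETS site.
Slc7a8: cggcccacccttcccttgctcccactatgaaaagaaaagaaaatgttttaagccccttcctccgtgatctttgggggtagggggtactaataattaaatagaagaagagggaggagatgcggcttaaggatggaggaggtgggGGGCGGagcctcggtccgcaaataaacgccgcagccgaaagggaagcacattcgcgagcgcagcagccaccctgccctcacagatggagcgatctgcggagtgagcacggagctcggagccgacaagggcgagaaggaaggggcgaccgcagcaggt

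Slc7a7 encodes y+LAT1, which exports cationic amino acids in exchange for neutral ones and sodium, and which is mutated in human lysinuric protein intolerance. It was at 60.9, 61.7 and 58.8 RPKM in libraries KO 2, KO 3 and KO 4, against 45.5, 43.7 and 39.1 in WT 1, WT 3 and WT 4. The 3 knockout values lay close together and above all wild-type values. Slc7a7 rose in knockout, with means of 60.5 ± 1.49 in knockout and 42.8 ± 3.33 in wild type, a log2 difference of 0.50 ± 0.10 (SE) and an adjusted p of 0.0329 in limma. The call did not survive leaving out WT 3, WT 4, KO 2 or KO 3 (adjusted p at most 0.167), without the filter on low values (0.077), with no intensity trend (0.0838), with quantile normalization (0.0554) and in voom (0.0535). Its value in the authors' deposited table was 0.504, with an adjusted p of 0.0489. The gene lies on chromosome 14 at 54369442 to 54420068, and its annotated span overlaps that of Oxa1l, a mitochondrial membrane insertase gene, by 228 bases. Strand is not kept in these libraries, and reads from that overlap cannot be assigned. It makes up 232 of 3315 exonic bases of Slc7a7 in GENCODE M21. Oxa1l itself was at 30.4 ± 1.57 RPKM in knockout and 16.3 ± 1.48 in wild type, and its part in the result for Slc7a7 was not tested.

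The most upstream Slc7a7 window, at chr14:54417895-54418194 on the minus strand, is shown because Slc7a7 and Slc7a8 lie on the same chromosome and were both higher in knockout. It held 2 matches to the C/EBP-ATF core, 141 bases and 1 base before the start, and 1 GC box. Slc7a7 has 5 annotated windows, of which 3 hold no C/EBP-ATF core and 1 other holds the match nearest to this start alone.
Slc7a7: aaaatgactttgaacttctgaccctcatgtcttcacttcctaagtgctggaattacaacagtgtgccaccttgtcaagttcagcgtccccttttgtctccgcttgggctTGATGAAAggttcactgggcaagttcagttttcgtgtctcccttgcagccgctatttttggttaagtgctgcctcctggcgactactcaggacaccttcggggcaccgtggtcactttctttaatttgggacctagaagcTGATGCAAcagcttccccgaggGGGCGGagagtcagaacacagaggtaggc

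Slc7a7 is also known from macrophages, so macrophage markers were set beside it. Of 14 listed, 5 were high enough to test, 0 passed in limma (3 at an unadjusted p under 0.05) and 0 were at 0 in every library. Vcam1, which endothelium also makes, held most of the sum, and the other 13 summed to 25.4 to 30.3 RPKM in knockout and 20.7 to 35.5 in wild type. Of those 13, 8 were below 1 RPKM in every library, among them Csf1r, at 0.0812 RPKM or less in knockout and 0.118 or less in wild type. Lyz2, a macrophage lysozyme gene, was at 7.21 ± 1.39 RPKM in knockout and 13.6 ± 5.84 in wild type. Cd14, a receptor for bacterial lipopolysaccharide, was at 13.1 ± 2.38 RPKM in knockout and 8.36 ± 2.19 in wild type (adjusted p = 0.181 in limma), and its groups did not overlap. Tyrobp went the other way without overlap, at 2.41 ± 0.651 RPKM in knockout and 3.59 ± 0.595 in wild type (adjusted p = 0.295 in limma). Of the markers below 1 RPKM, C1qc was higher and Marco lower in knockout without overlap. Of the 5 tested, 2 had a log2 fold change above 0, and the median was -0.30. Single markers lay on both sides, and the summed levels without Vcam1 overlapped between the groups. That sum, Csf1r, Lyz2, Tyrobp, C1qc and Marco were picked after their values were seen, and the part of macrophage RNA in the result for Slc7a7 was not tested.

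Slc3a2, the heavy chain, was the most abundant of the 10 genes in both groups. It was at 243, 252 and 226 RPKM in libraries KO 2, KO 3 and KO 4, against 178, 172 and 151 in WT 1, WT 3 and WT 4. All knockout values were above all wild-type values. It rose in knockout, with means of 241 ± 13.3 in knockout and 167 ± 14.2 in wild type, a log2 fold change of 0.53 ± 0.10 (SE) and an adjusted p of 0.0267 in limma. That call did not survive leaving out WT 4, KO 2 or KO 3 (adjusted p at most 0.143), without the filter on low values (0.0873) and with no intensity trend (0.0825). The authors' deposited table gave 0.529 and an adjusted p of 0.0388. Slc3a2 lies on chromosome 19 at 8706882 to 8723369, so the heavy chain is not a neighbour of either light chain that was higher. Its window at chr19:8713848-8714147 on the minus strand, shown for comparison with those light chains, held 2 GC boxes and 1 ETS site and no C/EBP-ATF core.
Slc3a2: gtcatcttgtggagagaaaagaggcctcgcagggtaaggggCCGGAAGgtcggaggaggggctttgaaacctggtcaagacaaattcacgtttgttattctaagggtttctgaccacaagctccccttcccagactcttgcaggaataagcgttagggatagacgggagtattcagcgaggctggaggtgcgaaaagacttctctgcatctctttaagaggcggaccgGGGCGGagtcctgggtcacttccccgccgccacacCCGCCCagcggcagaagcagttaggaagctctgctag

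The other tested light chains did not pass the test. Slc7a5 encodes LAT1, the exchanger that supplies leucine to growing cells and is the usual partner of the heavy chain in endothelium of the brain. It was at 5.17, 3.13 and 3.75 RPKM in libraries KO 2, KO 3 and KO 4, against 9.34, 7.21 and 3.91 in WT 1, WT 3 and WT 4. The groups overlapped, with WT 4 lower than KO 2. The log2 fold change, -0.65 ± 0.29 (SE), had an adjusted p of 0.318 in limma and ranged from -0.97 without WT 4 to 0.03 with library quality weights. Slc7a6 encodes y+LAT2, which shares the transport activity of y+LAT1. It was close to the filter on low values, at 1.26, 1.498 and 1.16 RPKM in libraries KO 2, KO 3 and KO 4 and 1.38, 1.80 and 1.25 in WT 1, WT 3 and WT 4 (log2 fold change -0.13 ± 0.19 SE, adjusted p = 0.774 in limma).

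Slc7a11 encodes xCT, which takes up cystine for glutathione synthesis in exchange for glutamate. It had the lowest mean of the 10 genes in both groups, at 0.0763, 0.104 and 0.0451 RPKM in libraries KO 2, KO 3 and KO 4, against 0.179, 0.221 and 0.249 in WT 1, WT 3 and WT 4. Each knockout value was below each wild-type value, on 17 to 49 reads in knockout and 69 to 105 in wild type. Among all 17683 genes above 0 in some library, 17.1% had groups that did not overlap (7.78% higher in knockout, 9.3% lower). The gene was too low to be tested, and in a fit with no filter on low values, where 0.435% of genes passed (0.175% higher, 0.26% lower), it stood at a log2 fold change of -0.32 ± 0.07 (SE) and an adjusted p of 0.135 in limma. That scale adds 0.5 RPKM to every value and so understates a gene at this level, whose means were 0.0753 ± 0.0297 in knockout and 0.216 ± 0.0351 in wild type. The authors' deposited table gave a log2 fold change of -1.55 with an adjusted p of 0.103. Its window at chr3:50443564-50443863 on the minus strand is shown because it held 2 matches to the C/EBP-ATF core, 66 and 47 bases before the start and on opposite strands.
Slc7a11: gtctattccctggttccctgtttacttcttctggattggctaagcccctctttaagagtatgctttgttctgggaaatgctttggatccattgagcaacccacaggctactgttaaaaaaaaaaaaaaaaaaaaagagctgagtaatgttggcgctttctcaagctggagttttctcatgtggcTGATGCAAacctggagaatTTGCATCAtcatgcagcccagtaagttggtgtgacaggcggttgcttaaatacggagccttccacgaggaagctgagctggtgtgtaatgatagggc

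The make-up of the light chains that pair with the heavy chain differed as these levels do. Slc7a8 made up 49.0%, 44.5% and 51.2% of the summed RPKM of the 5 light chains examined in KO 2, KO 3 and KO 4, and 20.6%, 19.9% and 29.5% in WT 1, WT 3 and WT 4. Slc7a7 made up 47.5 ± 3.48% in knockout and 64.05 ± 2.12% in wild type, and was the most abundant light chain in all 3 wild-type libraries and in KO 3. Slc7a5 made up 3.13 ± 0.69% in knockout and 10.1 ± 3.54% in wild type. Among exchangers of neutral amino acids, the level of Slc7a8 was 12.5, 17.04 and 17.8 times that of Slc7a5 in KO 2, KO 3 and KO 4, and 1.57, 1.82 and 4.75 times in WT 1, WT 3 and WT 4. The summed light chains came to 128 ± 6.77 RPKM in knockout and 66.7 ± 4.03 in wild type, which is 0.532 ± 0.0525 of the level of Slc3a2 in knockout and 0.4003 ± 0.0161 in wild type. The heavy chain thus exceeded its summed light chains in every library. These shares contain Slc7a8 and are given as a description.

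**Figure D2:**
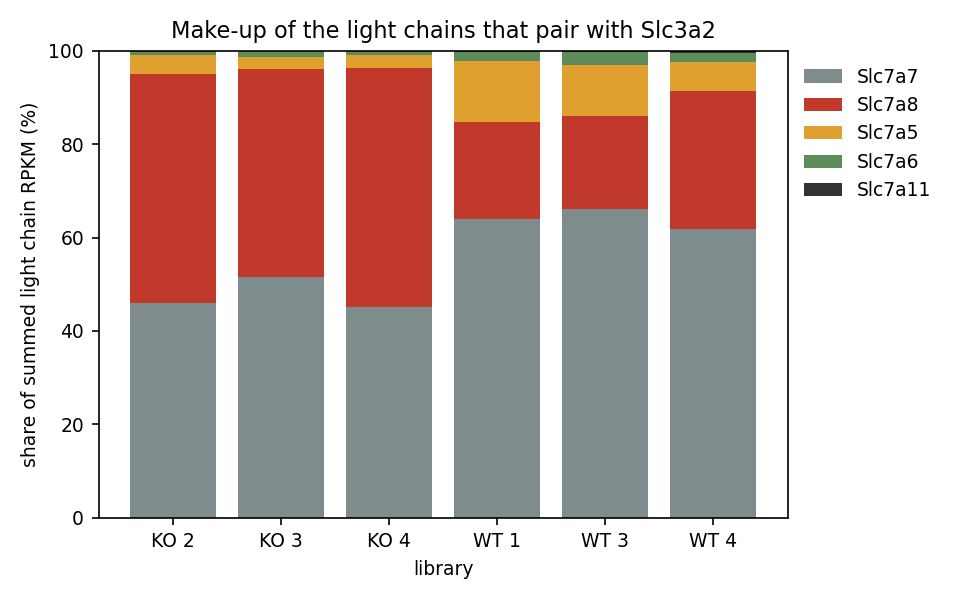
Share of each of the 5 light chain genes in their summed RPKM (%, stacked bars) in each knockout and wild-type library. Slc7a8 (red) takes 44.5% to 51.2% in knockout and 19.9% to 29.5% in wild type, while Slc7a5 (orange) takes at most 3.91% in knockout and at least 6.21% in wild type. The sum includes Slc7a8, and the level of Slc7a5 itself overlapped between the groups.

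Of the 4 carriers that need no heavy chain, 3 were tested and 0 passed in limma. Slc7a1 encodes CAT1, the main arginine carrier of many cells, and was at 4.43, 7.89 and 4.86 RPKM in libraries KO 2, KO 3 and KO 4, against 4.28, 5.98 and 6.78 in WT 1, WT 3 and WT 4. The groups overlapped throughout (log2 fold change -0.01 ± 0.24 SE, adjusted p = 0.990 in limma), with KO 3 the highest of the 6 libraries. Slc7a2 encodes CAT2, an arginine carrier induced in activated macrophages, and was too low to test, at 0.303 to 0.439 RPKM in knockout and 0.173 to 0.409 in wild type. Slc38a2 encodes SNAT2, a sodium-coupled carrier of small neutral amino acids that many cells make in response to amino acid shortage. It was at 52.7, 53.6 and 58.1 RPKM in libraries KO 2, KO 3 and KO 4, against 48.7, 64.7 and 71.9 in WT 1, WT 3 and WT 4. Wild-type values lay on both sides of the knockout ones, and the log2 fold change was -0.15 ± 0.14 SE (adjusted p = 0.607 in limma). It passed as lower in 1 of 17 alternative fits, that with library quality weights (-0.37, adjusted p = 0.0116), in which 33.1% of all genes passed (17.0% lower). Slc1a5 encodes ASCT2, a sodium-dependent exchanger of glutamine and other neutral amino acids, and was at 18.5, 17.3 and 14.0 RPKM in libraries KO 2, KO 3 and KO 4, against 15.4, 15.6 and 16.0 in WT 1, WT 3 and WT 4. The wild-type values lay within the knockout range (log2 fold change 0.07 ± 0.13 SE, adjusted p = 0.816 in limma).

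**Figure D3:**
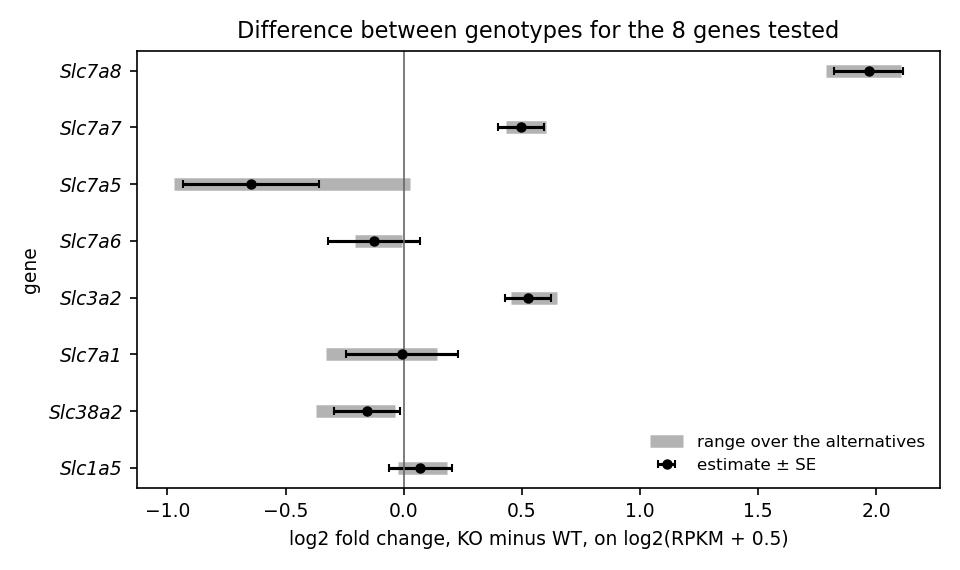
Log2 fold change (knockout minus wild type) of the 8 tested carrier genes, with points and whiskers for the estimate and its SE and grey bars for the range over the alternative fits. Slc7a8 stands at 1.97, Slc7a7 and Slc3a2 at 0.50 and 0.53, and the range of Slc7a5 runs from -0.97 to 0.03.

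The order of levels differed between the groups at a few places. In knockout the order was Slc3a2, Slc7a8, Slc7a7, Slc38a2, Slc1a5, Slc7a1, Slc7a5, Slc7a6, Slc7a2 and Slc7a11. Slc7a8 and Slc7a7 overlapped there, as did Slc7a1 and Slc7a5, and other neighbours in the order did not. In wild type the order was Slc3a2, Slc38a2, Slc7a7, Slc1a5, Slc7a8, Slc7a5, Slc7a1, Slc7a6, Slc7a2 and Slc7a11. Slc7a8 overlapped with Slc1a5 there, Slc7a5 with Slc7a1, and Slc7a2 with Slc7a11. Slc7a8 thus stood beside Slc7a7 in knockout and beside the glutamine carrier Slc1a5 in wild type.

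Slc7a8 and Slc7a7 lie 302.1 kb apart on the chromosome that also carries Stab1, 23.6 Mb away from Slc7a8. Within 1 Mb of Slc7a8, 37 other genes were tested, of which 3 rose and 1 fell (10.8%, against 1.94% over all genes), and their median log2 fold change was 0.13. On all of chromosome 14 without Slc7a8, 25 of 330 tested genes passed (7.58%), 16 higher in knockout and 9 lower. Over all genes, 0.671% passed as higher and 1.27% as lower. The genes counted on the chromosome include Slc7a7 and the deleted gene Stab1 itself. The called genes near Slc7a8 were Abhd4, Oxa1l and Slc7a7, which rose, and Psmb5, which fell. Abhd4 and Oxa1l were named after their values were seen. Abhd4, which encodes a lipase of phospholipid metabolism, was at 224 ± 11.4 RPKM in knockout and 126 ± 17.6 in wild type (log2 fold change 0.83 ± 0.11 SE, adjusted p = 0.00705 in limma). Psmb5, which encodes a catalytic subunit of the proteasome, lies 104.2 kb below Slc7a8 and was at 34.97 ± 2.18 RPKM in knockout and 68.6 ± 4.42 in wild type (log2 fold change -0.96 ± 0.10 SE, adjusted p = 0.00159 in limma).

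Of the 8 nearest tested genes, 4 on each side, Psmb5 passed and 7 did not. The 2 closest on the lower side, Acin1, an RNA-binding protein gene, and 1700123O20Rik, were at 7.02 ± 0.564 and 32.3 ± 1.42 RPKM in knockout and 7.09 ± 0.951 and 28.3 ± 0.859 in wild type (adjusted p = 0.983 and 0.379 in limma). Beyond Psmb5, 4931414P19Rik was at 2.64 ± 0.160 RPKM in knockout and 1.56 ± 0.258 in wild type (adjusted p = 0.141). On the upper side, Homez, a homeobox gene, Bcl2l2, a survival gene of the BCL2 family, Pabpn1, a poly(A) binding protein gene, and Slc22a17, a lipocalin receptor gene, had log2 fold changes from -0.23 to 0.22 and adjusted p of 0.294 to 0.921 in limma. Whether position bears on the level of Slc7a8 or Slc7a7 was not tested.

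**Figure D4:**
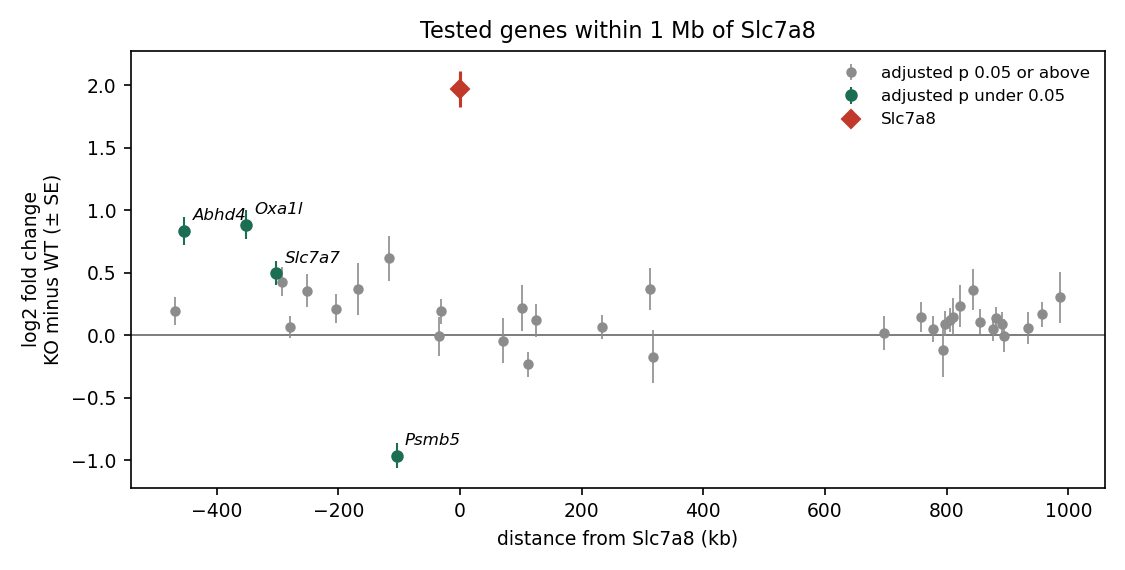
Log2 fold change (knockout minus wild type, ± SE) of the 37 tested genes within 1 Mb of Slc7a8 against their distance from it (kb), with Slc7a8 as a red diamond and genes past an adjusted p of 0.05 in green. The 4 green genes lie on one side, between Abhd4 at -453.0 kb and Psmb5 at -104.2 kb, and the 3 genes closest to Slc7a8 are grey, between -0.04 and 0.19.

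The tested genes whose log2 values followed Slc7a8 most closely over the 6 libraries were Abhd6 (Pearson r 0.996), Ldb2 (0.995), Pgm1 (0.992), Mvd (0.992) and Fam110b (0.988). Each has groups that do not overlap, and all r share the same 6 libraries and the same gap between genotypes. Abhd6, a monoacylglycerol lipase gene on chromosome 14, was at 107, 103 and 106 RPKM in libraries KO 2, KO 3 and KO 4, and at 73.7, 70.3 and 74.7 in WT 1, WT 3 and WT 4. In both groups its libraries kept the order of Slc7a8 at the low end, with KO 3 and WT 3 lowest. Abhd6 was picked for its r over these same values, so that order is no separate result. The other 4 lie on chromosomes 4, 5 and 8. Of the carrier genes, Slc7a7 (0.912) and Slc3a2 (0.890) came nearest and Slc7a5 (-0.680) farthest.

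Other genes of amino acid transport, sensing and use were counted in lists. Of 28 other plasma membrane carriers, 12 were tested and 0 passed in limma (4 at an unadjusted p under 0.05), with a median log2 fold change of -0.00. The 2 most abundant were Slc43a3, a purine carrier of the SLC43 family, at 102 ± 9.23 RPKM in knockout and 104 ± 18.0 in wild type, and Slc6a6, the taurine carrier, at 44.5 ± 3.51 and 45.2 ± 7.01. Of 29 tested genes of lysosomal carriers and mTORC1 amino acid sensing, 0 passed in limma (2 at an unadjusted p under 0.05, median 0.07). Lamtor2, of the Ragulator complex, was at 169 ± 6.65 RPKM in knockout and 163 ± 23.2 in wild type, and Rheb, the activator of mTORC1, at 109 ± 4.93 and 111 ± 20.4.

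Of 18 tested genes of the ATF4 amino acid response, 1 rose and 0 fell in limma (4 at an unadjusted p under 0.05, median 0.01). The gene that rose was Stc2, which encodes the secreted glycoprotein stanniocalcin 2, at 4.79, 4.56 and 4.45 RPKM in libraries KO 2, KO 3 and KO 4 and 2.29, 2.54 and 2.65 in WT 1, WT 3 and WT 4 (log2 fold change 0.77 ± 0.16 SE, adjusted p = 0.0398 in limma). Its groups stood apart, but the call was lost without any 1 of the 6 libraries (adjusted p 0.0526 to 0.19), with no filter on low values (0.113), in voom (0.0533) and with the replicate block (0.0839). Groups did not overlap for 4 of the 18, all higher in knockout (10.7% over all genes tested). They were Stc2, Atf4 itself, its target Asns (asparagine synthetase) and Psph, with Atf4, Asns and Psph named after their values were seen. Atf4 and Asns were at 143 ± 10.5 and 41.0 ± 2.64 RPKM in knockout and 124 ± 2.74 and 33.7 ± 2.39 in wild type (adjusted p = 0.305 and 0.237 in limma). Psph was at 21.0 ± 3.71 RPKM in knockout and 12.5 ± 1.99 in wild type (log2 fold change 0.72 ± 0.16 SE, adjusted p = 0.0601 in limma). Ppp1r15a, a phosphatase regulator of the same response, was at 317 ± 25.2 RPKM in knockout and 307 ± 65.3 in wild type, and Nupr1, a stress-induced nuclear protein gene, at 233 ± 7.62 and 247 ± 62.5. Of 23 aminoacyl-tRNA synthetases and their scaffold proteins, 0 passed in limma (5 at an unadjusted p under 0.05), and 19 were above 0 on the log2 scale (54.3% over all genes). Their median was 0.18, against 0.03 over all genes, but 0.11 without WT 1, 0.09 with library quality weights and 0.07 with the replicate block, and no test was made of the list. Kars, for lysine, was at 70.1 ± 5.49 RPKM in knockout and 61.8 ± 5.44 in wild type, and Wars, for tryptophan, at 65.9 ± 3.42 and 53.7 ± 7.43.

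Among 14 tested genes of arginine, nitric oxide and polyamine metabolism, 1 rose and 0 fell in limma (median 0.18). At an unadjusted p under 0.05 were 5 of them, against 15.7% of all genes tested, and 11 had a log2 fold change above 0 (54.3% over all genes). Nos3, the endothelial nitric oxide synthase that uses arginine, was at 198, 178 and 138 RPKM in libraries KO 2, KO 3 and KO 4 and 59.5, 84.5 and 91.9 in WT 1, WT 3 and WT 4. All knockout values were above all wild-type values (log2 fold change 1.13 ± 0.18 SE, adjusted p = 0.0138 in limma), and the call was lost without KO 2 (0.0552) or KO 3 (0.07) and in the fit lacking a filter (0.0936). Ddah2, which breaks down inhibitors of nitric oxide synthase, was at 221 ± 9.02 RPKM in knockout and 189 ± 3.85 in wild type (adjusted p = 0.233), and Sat1, of polyamine breakdown, at 159 ± 3.62 and 185 ± 5.98 (adjusted p = 0.239). The difference between Nos3 and the arginine carriers Slc7a1 and Slc7a2 was not tested.

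Of 17 tested genes of glutathione synthesis and cystine use, 0 passed in limma (3 at an unadjusted p under 0.05, median 0.05), with Gpx1, a glutathione peroxidase, at 1044 ± 144 RPKM in knockout and 1054 ± 77.9 in wild type and Gstm1, a glutathione transferase, at 244 ± 27.8 and 197 ± 39.1. Of 14 genes of glutamine and branched-chain amino acid metabolism, 0 passed in limma (2 at an unadjusted p under 0.05, median 0.13), with Glud1, glutamate dehydrogenase, at 76.9 ± 1.64 and 66.3 ± 3.07 RPKM in knockout and wild type, and Bckdha, of branched-chain keto acid breakdown, at 67.3 ± 11.2 and 57.7 ± 6.48. Of 8 tested peptide carriers and surface peptidases 1 rose and 0 fell in limma (4 at an unadjusted p under 0.05, against 15.7% of all genes tested, median -0.04). Slc15a2, the proton-coupled carrier of short peptides, was at 2.21, 2.19 and 2.34 RPKM in libraries KO 2, KO 3 and KO 4 and 0.646, 0.660 and 0 in WT 1, WT 3 and WT 4 (log2 fold change 1.65 ± 0.31 SE, adjusted p = 0.0302 in limma). Its groups did not overlap, and the call did not survive leaving out KO 2, KO 3 or KO 4 (adjusted p 0.0569 to 0.117), with a pseudocount of 0.1 (0.104), with no filter on low values (0.134) and in voom (0.17). Pepd and Cndp2, which cleave dipeptides, were at 68.5 ± 4.47 and 36.0 ± 3.63 RPKM in knockout and 58.9 ± 2.40 and 26.9 ± 3.09 in wild type (adjusted p = 0.303 and 0.151). Of 4 tested thyroid hormone carriers and related genes 0 passed in limma (0 at an unadjusted p under 0.05), with Slco3a1, an organic anion carrier, at 20.0 ± 0.935 and 16.6 ± 3.14 RPKM in knockout and wild type.

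**Figure D5:**
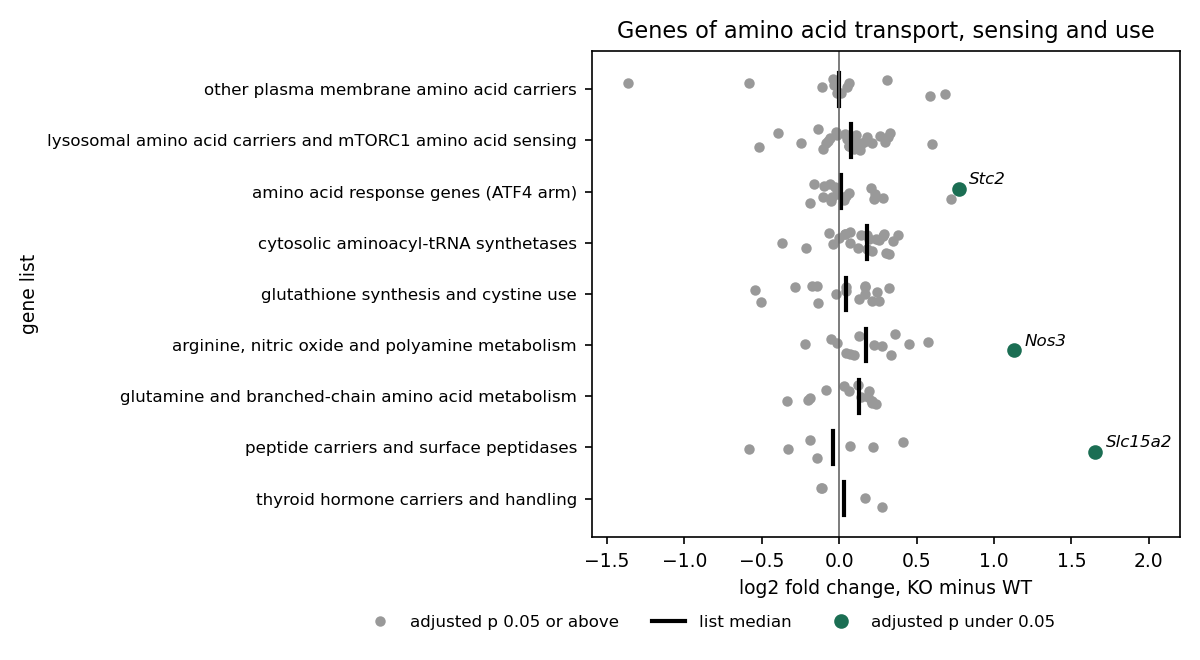
Log2 fold change (knockout minus wild type) of each tested gene in 9 lists of amino acid transport, sensing and use; grey points are genes at an adjusted p of 0.05 or above, green points are called genes, and black bars are list medians. The called genes are Stc2, Nos3 and Slc15a2, and the medians lie between -0.04 and 0.18. Slc15a2 met the filter on low values only through its knockout libraries.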

How the data were processed

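Per the labels' protocols, sorted CD31+ CD45- spleen cells gave cDNA by SMART-Seq v4, which was turned into Nextera XT libraries that do not mark strand. For the files the authors deposited, the submitters' processing notes list mm10 as build and limma, edgeR, Subread and STAR 2.5.2b as tools, without order or settings. The authors deposited 1 normalized value per gene and library, used here as RPKM. A read's worth fell with gene length: among 908 genes with 1 GENCODE transcript, 74.4% gave a library size within 10% of their median. The authors also deposited a table of group means, log2 fold changes, p-values and a signed fold score (negative where knockout is lower), per the file headers. Since column numbers differ from the replicate numbers of the titles, each column was assigned by genotype alone and is called by its own number.

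Whole reads were recovered for 17680 of 17683 genes above 0 (99.98%, tolerance 0.001). Within groups, the spread exceeded sampling noise (chi-square over its degrees of freedom, 30.2 to 98.4), and all 6 were kept. Genes reaching 1 RPKM in 3 or more libraries were tested in R 4.3.3 by limma 3.58.1, as log2(RPKM + 0.5) against genotype with an intensity trend. Benjamini-Hochberg adjustment covered all 11035 genes (threshold 0.05). The alternatives, among them voom on recovered reads, are named in the closing section. Positions came from RefSeq (GRCm38.p6), matched for 10131 tested genes. List entries were matched by symbol (250) or older symbol (6), and 1 was not matched; members were left out of the lists. Lists carry counts and medians with no set test. The members and lists were chosen with earlier results of these data known. Genes were named by rule: the carriers, genes of a list past the threshold (at most 4), its 2 most abundant where fewer than 2 were past it, the 4 nearest tested genes on each side of Slc7a8 and the 5 most alike; 1 gene so named is not reported here. Figures used Python 3.11.15 with matplotlib 3.10.9.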

Additional observations from a re-analysis of the deposited data

How the results depend on the processing

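The number of genes called across all genes, 214 as reported, was 77 with no filter on low values, 3653 with library quality weights and 347 with the replicate block on column numbers 3 and 4, and lay between 56 and 418 when each library was left out in turn. The number of carrier genes called, 3 as reported, was 1 with no filter, 1 with no intensity trend, 2 with quantile normalization, 2 in voom and 4 with quality weights (which added Slc38a2 as lower), and lay between 1 and 3 with each library left out. These counts include Slc7a8, whose difference set the choice of genes. With no filter and with no intensity trend the 1 call was Slc7a8, and no other carrier passed. Voom called 256 genes, quantile normalization 168 and no intensity trend 179. Pseudocounts of 0.1 and 1 (201 and 218 genes), a filter at 5 RPKM (152), median centring (212) and robust variances (230) kept 3 carrier calls each. Slc7a8 stayed at 1.79 to 2.10 (log2, knockout minus wild type) in 17 alternatives. Slc7a7 (0.43 to 0.60) and Slc3a2 (0.45 to 0.65) kept their direction in all 17, and their calls in 9 and 12. The sign of uncalled genes turned for Slc7a5 with quality weights (0.028), for Slc7a1 with quantile normalization (0.053) and median centring (0.0029), and with single libraries left out (-0.244 to 0.139), and for Slc1a5 with single libraries left out (-0.011 to 0.185) and with the replicate block (-0.022). The quality weights were 4.19 for WT 4 and 3.115 for KO 2, and lay between 0.336 and 0.975 for the other libraries. The cause of the turned signs was not tested. The columns of the groups share only the numbers 3 and 4, and these are not the labels' numbers. The deviations of same-numbered libraries had a correlation of 0.193 for each number. Libraries of unlike number were not compared, so this cannot show pairing, and there were too few to treat as pairs. The block, fitted on those 4 libraries only, changed no call of a carrier gene. Of 288 counts of called genes in lists under alternatives 39 moved by over 1.5 times, and of 288 list medians 7 moved by more than the spread between replicates. Depth limits Slc7a11 and Slc7a2, which had at most 141 reads in any library.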
